A study of Mus musculus with 3 samples.

Results

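Cluster 4 is the smallest of the 5 neuronal clusters that the authors deposited for fluorescent nuclei sorted from the lateral habenula (LHb) of mice. Its members are the nuclei that carry the authors' class Neurons and the deposited cluster number 4. They are 75 nuclei, or 12.7% of the 592 neuronal nuclei, out of 603 nuclei in all. Cpne8, Igfbpl1, Cdh9 and Megf11 are the genes given as its markers. Since the deposited clusters were made from the same transcripts, every difference between cluster 4 and the other neurons is a description, given without a test.

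The nuclei came from mothers, called sexually-experienced females in the series' design, from virgin females and from virgin males. All 3 groups share the labelled population KASH-GFP+ BNST LHb neurons. A KASH domain anchors the green fluorescent protein to the outer nuclear membrane, so that nuclei can be sorted by it. BNST stands for the limbic bed nucleus of the stria terminalis. Strain, age, time after birth of the pups and the way the fluorescent label reached the neurons are not given in the sources used. Each group was a pool of 3 mice that gave 1 library, so the 3 libraries are also the 3 groups. An SD over libraries therefore spans groups as well as preparations, and no difference between groups has a replicate check.

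Cluster 4 held 34 of the mothers' 201 neuronal nuclei, a share of 16.9% (exact Clopper-Pearson 95% interval 12.01 to 22.8). It held 18 of 187 in virgin females, or 9.63% (5.81 to 14.8), and 23 of 204 in virgin males, or 11.3% (7.28 to 16.4). The mothers' share was the highest of the 3, and its interval overlapped those of the others. These nuclei carried 404005, 190957 and 181536 unique molecular identifiers (UMIs, which count transcripts once each) in mothers, virgin females and virgin males. The median nucleus held 9926, 10507 and 7395 UMIs in the same order, and single nuclei held 2390 to 30040. The medians of clusters 0 to 3 were 11465, 9894, 12639 and 15007 UMIs. No nucleus barcode was shared between libraries. A level below is a gene's UMIs summed over the cluster's nuclei of a library, divided by all their UMIs and scaled to UMIs per 1000000 (CPM). All intervals cover counting error only.

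The LHb is an epithalamic nucleus that relays limbic and basal ganglia input to midbrain monoamine centres, and it is known for its part in aversion and the absence of expected reward. Most of its neurons release glutamate and carry the vesicular transporter Slc17a6. Neighbouring thalamic relay neurons express transcription factors such as Lef1 and Tcf7l2 and the adhesion molecule Ntng1. The medial habenula holds cholinergic and tachykinin neurons. Of the 4 markers, Cpne8 encodes a copine, a calcium-dependent phospholipid-binding protein, and Igfbpl1 a secreted protein related to the insulin-like growth factor binding proteins. Cdh9 is a classical type II cadherin, a homophilic adhesion molecule of synapses, and Megf11 is a transmembrane protein with epidermal growth factor repeats that sets the spacing of retinal neurons.

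The promoters of Cpne8 and Cdh9 are shown because both genes are marker genes of the cluster and differ in how many E-boxes (CANNTG) their start regions hold. An E-box is the short palindromic motif that basic helix-loop-helix proteins recognise. Both sequences are from RefSeq on GRCm38.p6, 5′ to 3′ along the gene, from 250 bases before to 50 bases after the start, with E-boxes in capitals. Of the 4 markers, 2 matched the promoter table, and Igfbpl1 and Megf11 are named only. The Cpne8 window lies at chr15:90679339-90679638 on the minus strand, and the Cdh9 window at chr15:16728665-16728964 on the plus strand.
Cpne8: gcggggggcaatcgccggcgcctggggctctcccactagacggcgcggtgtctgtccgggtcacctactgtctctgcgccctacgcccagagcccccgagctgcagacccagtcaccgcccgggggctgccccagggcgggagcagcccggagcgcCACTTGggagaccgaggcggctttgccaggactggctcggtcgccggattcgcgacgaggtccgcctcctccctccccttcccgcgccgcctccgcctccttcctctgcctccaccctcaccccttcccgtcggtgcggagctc
Cdh9: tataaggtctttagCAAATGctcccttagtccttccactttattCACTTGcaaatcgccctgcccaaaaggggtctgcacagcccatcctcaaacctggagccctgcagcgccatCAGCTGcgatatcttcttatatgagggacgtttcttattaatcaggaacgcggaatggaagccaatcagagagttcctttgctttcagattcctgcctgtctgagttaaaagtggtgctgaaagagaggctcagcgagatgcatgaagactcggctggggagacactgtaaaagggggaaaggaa

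The Cpne8 window held 1 E-box, with the letters CACTTG, and the Cdh9 window held 3. CANNTG is its own reverse complement, so both strands were searched at once. The form in the Cpne8 window was also among those of Cdh9. Of 32851 promoter windows of 300 bases, 72.3% held at least 1 E-box and 17.6% at least 3, so a match of this kind was frequent over all genes. A match is a description of the letters and not of binding.

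All 4 markers were highest in cluster 4 in every library. Cpne8 (chromosome 15, 90487482 to 90679432 on GRCm38) stood at 158 CPM in the mothers, 236 in the virgin females and 138 in the virgin males, a mean of 177 ± 51.6 (SD, n = 3 libraries). The other neurons held 9.10 CPM, 19.5-fold less, and cluster 1 came next with 25.9 CPM. Virgin females were highest, and no library of cluster 1 came near the lowest library of cluster 4. A Cpne8 UMI was found in 50 of 75 nuclei.

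Igfbpl1 (chromosome 4, 45809468 to 45826923) had 42.1, 52.4 and 77.1 CPM in mothers, virgin females and virgin males, from 41 UMIs in 32 nuclei. The other 517 neuronal nuclei held 2 Igfbpl1 UMIs, both in cluster 1 of virgin females. The ratio of pooled levels was 178 (95% counting interval 46.3 to 1522), a width set by those 2 UMIs. Igfbpl1 was thus detected in fewer nuclei of cluster 4 than the other markers, and hardly outside it.

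Cdh9 (chromosome 15, 16728756 to 16857094) had 149 CPM in the mothers, 94.3 in the virgin females and 149 in the virgin males, against 8.03 in the other neurons, a 16.2-fold difference. Its UMIs were found in 53 of 75 nuclei. Megf11 (chromosome 9, 64385626 to 64709205) had 498, 524 and 584 CPM, against 45.8 in the other neurons, an 11.7-fold difference, and was found in 66 of 75 nuclei. Megf11 was the most widely detected of the markers and varied least between libraries, although 1 nucleus held 49 of its 407 UMIs. In cluster 1 Megf11 had 205, 140.3 and 34.7 CPM in mothers, virgin females and virgin males, so the step from cluster 1 to cluster 4 was smallest in mothers.

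**Figure D1:**
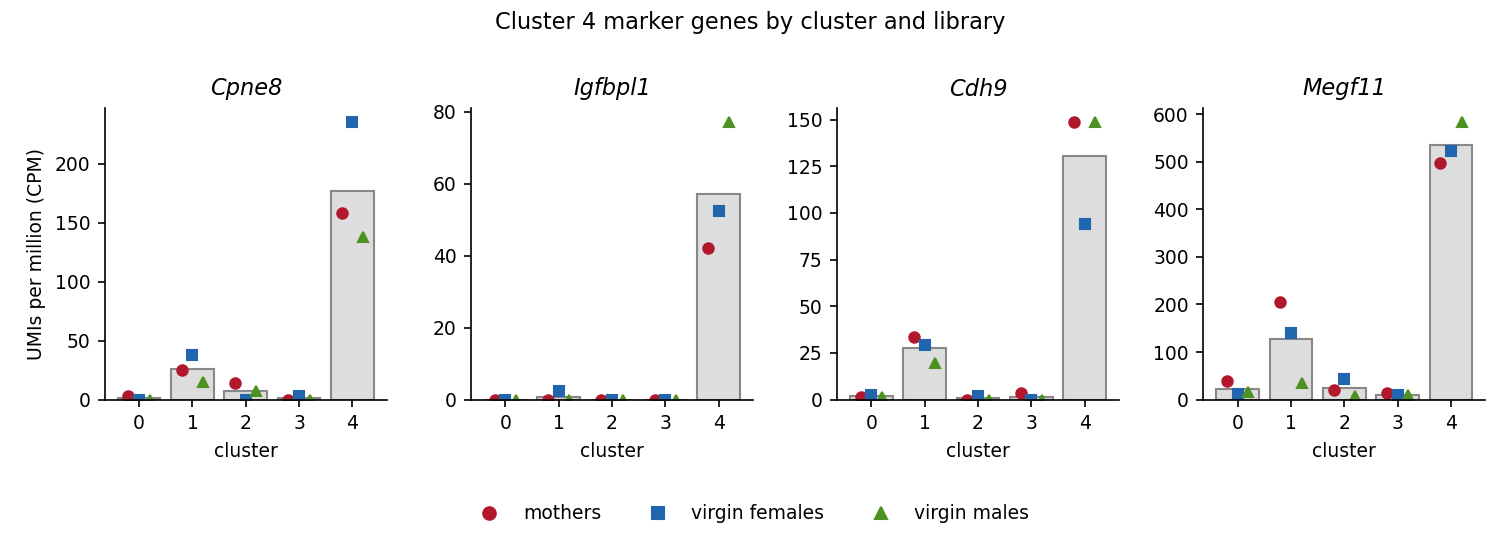
Levels (CPM, linear axes from 0) of the 4 marker genes in clusters 0 to 4; points are the libraries of mothers, virgin females and virgin males and bars their mean. Each library of cluster 4 lies above every library of the other clusters, and cluster 1 is next, at 25.9 CPM for Cpne8 and 127 for Megf11.

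The markers were found together in the same nuclei. All 75 nuclei held a UMI of at least 1 marker, 67 of at least 2 (89.3%) and 18 of all 4. At least 2 markers were found in 25 of 157 nuclei of cluster 1 (15.9%), in 2 of 97 of cluster 2, and in none of the 172 and 91 nuclei of clusters 0 and 3. Nuclei with a marker pair thus existed outside cluster 4, nearly all of them in cluster 1. They were 21 of the 86 cluster 1 nuclei labelled LHb2 in the authors' second subtype scheme and 4 of the 71 labelled LHb4.

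Depth differed between clusters, so shares of nuclei with a UMI were also taken after each nucleus was thinned to 4000 UMIs, which left out 2 nuclei of cluster 4, 20 of cluster 1, 7 of cluster 0, 3 of cluster 2 and 1 of cluster 3. Cpne8 was then found in 41.1% of cluster 4 nuclei (29.7 to 53.2) and 13.9% of cluster 1. Cdh9 was found in 45.2% and 8.03%, Megf11 in 75.3% and 22.6%, and Igfbpl1 in 17.8% and 0% (0 of 137, upper bound 2.66%). The shares of each marker in clusters 0, 2 and 3, where free RNA would also be counted, were between 0% and 6.06%. At equal depth Cpne8, Cdh9 and Megf11 kept the order cluster 4, cluster 1, other clusters that the CPM values gave, and Igfbpl1 was found in cluster 4 alone.

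All 75 nuclei carried the authors' label LHb, as did 588 of all 592 neuronal nuclei, so this label does not set the cluster apart. The label lhb_1 of one subtype scheme was on 74 of the 75, and on 402 of all neuronal nuclei. The label LHb2 of the other scheme was on 71 of the 75, and on 216 of all neuronal nuclei. Of the remaining 4 nuclei, 3 were labelled LHb4 and 1, in mothers, LHb1 together with lhb_3. The 3 LHb4 nuclei, 2 of virgin males and 1 of mothers, held 2 or 3 of the 4 markers each.

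Of the LHb markers, the broadly expressed ones gave nearly all the counts. The 6 LHb genes Gap43, Pcdh10, Htr2c, Gpr151, Pou4f1 and Chrm3 summed to 1641, 1875 and 1906 CPM in mothers, virgin females and virgin males of cluster 4, against means of 889, 1931, 1157 and 1176 in clusters 0 to 3. Chrm3, a muscarinic acetylcholine receptor gene, made up much of this, with 871, 1021 and 1228 CPM in cluster 4 and 399 in the other neurons. Pou4f1, which encodes the habenular transcription factor Brn3a, had 6 UMIs in 4 nuclei, 5 of these UMIs in virgin males and none in mothers. Gpr151, a habenular G protein-coupled receptor gene, had 1 UMI in the whole cluster. The sum was thus near that of cluster 1. Pou4f1 was found in 31 of 157 cluster 1 nuclei (19.7%) and 4 of 75 here (5.33%), at median depths of 9894 and 9431 UMIs. After thinning to 4000 UMIs, 8 of 137 and 3 of 73 nuclei held one (5.84%, 2.55 to 11.2, and 4.11%, 0.856 to 11.5). These thinned counts are too small to show or exclude a difference, and the lower share at full depth was not tested. Clusters 0, 2 and 3 held no Pou4f1 UMI.

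Thalamic markers were low in cluster 4. Lef1, Prkcd, Rora, Ntng1, Gbx2 and Plekhg1 summed to 1812 CPM in the mothers, 1000.2 in the virgin females and 1135 in the virgin males. The means in clusters 0 to 3 were 7049, 2085, 8215 and 10602, so cluster 4 held the least. Most of its sum was Rora, a nuclear receptor gene, at 1039 ± 216 CPM. Per nucleus the median sum was 931 CPM, and 2 of 75 nuclei passed 4000 CPM, against 169 of 172, 11 of 157, 95 of 97 and 91 of 91 in clusters 0 to 3.

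Those 2 nuclei were both of the mothers' library and among its deepest, with 22034 and 24366 UMIs. The nucleus with the labels LHb1 and lhb_3 was the shallower of the pair. Together they held 138 of the 200 Ntng1 UMIs, 13 of the 16 Plekhg1 UMIs, 27 of the 28 Foxp2 UMIs and all 11 Lef1 UMIs of the mothers' cluster 4. No doublet call was made, and whether these nuclei joined cells of different kinds was not tested. Values that rest on them are given below with and without them.

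**Figure D2:**
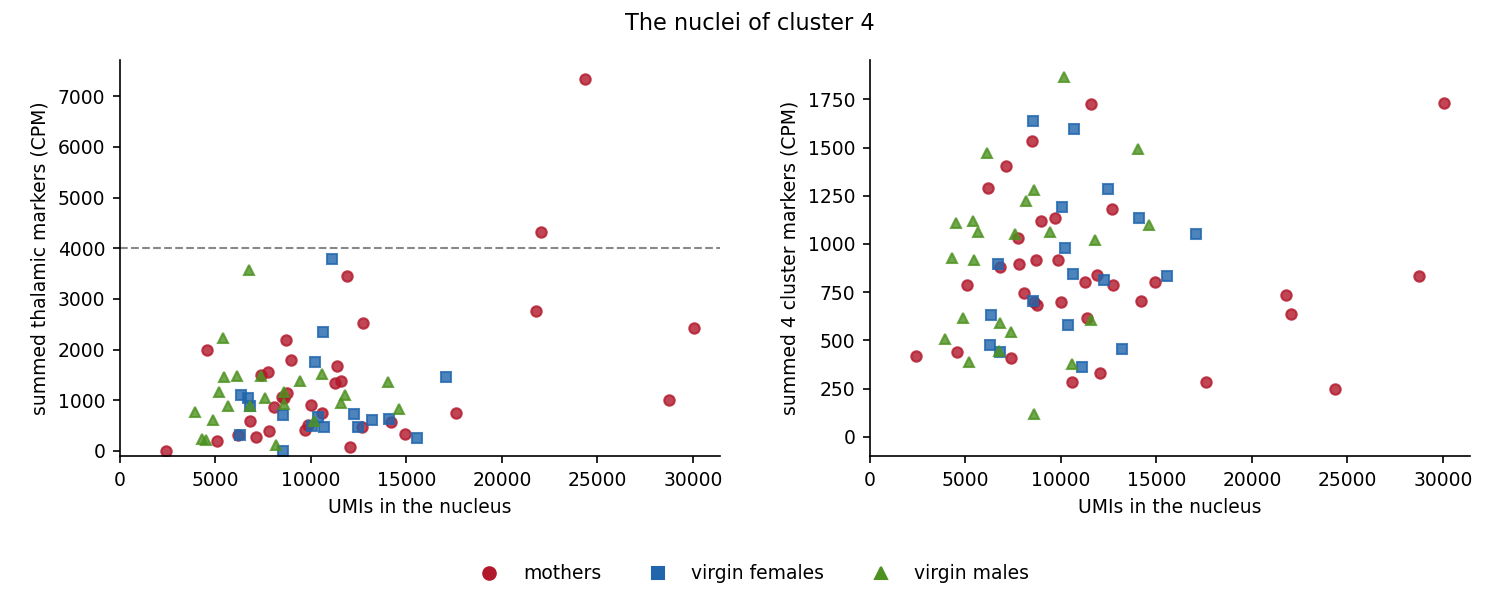
Each point is 1 of the 75 nuclei of cluster 4, by library, with its UMIs on the horizontal axes; the vertical axes give the summed CPM of the 6 thalamic markers (left, dashed line at 4000 CPM) and of the 4 cluster markers (right). The 2 nuclei above the line are mothers' nuclei of 22034 and 24366 UMIs, and the cluster markers are present in all nuclei.

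Depth was uneven within the mothers' library. Its 5 nuclei with over 20000 UMIs held 126990 UMIs, or 31.4% of the mothers' cluster 4 total, and no nucleus of the other libraries in this cluster passed 20000. A sum over the mothers' nuclei therefore leaned on few cells. The largest share of mitochondrially encoded UMIs in a nucleus, 5.04%, was also in mothers, while the 3 library medians were between 0.0589% and 0.0659%.

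Markers of other cell types were low or at 0. None of the 6 genes of cortex or hippocampus and none of the 5 of oligodendrocyte precursors had a UMI in cluster 4. Medial habenula genes summed to 89.0 to 116 CPM, of which Calb2 gave most, with Tac2, Chat, Slc18a3 and Chrna3 at 0. Sums of astrocyte genes were 73.3 to 121 CPM with Aqp4, Gja1 and Gfap at 0, of microglial genes 198 to 272 CPM with C1qa and Tmem119 at 0, and of oligodendrocyte genes 47.0 to 71.6 CPM with Mobp at 0. Endothelial, pericyte or fibroblast and ependymal genes each summed to at most 11.0 CPM in any library.

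GABAergic markers were split. Gad2, which encodes a glutamate decarboxylase, had 37.1 CPM in the mothers, 105 in the virgin females and 60.6 in the virgin males. The other neurons held 9.83 CPM of it. Gad1, the other decarboxylase gene, and Slc32a1, the vesicular GABA transporter gene, had no UMI in cluster 4, where a floor of 3 UMIs corresponds to 3.86 CPM. Cluster 4 thus held Gad2 UMIs in every library, while the vesicular transporter of GABAergic terminals was not detected. Among 9 counted genes of transmitter identity, Gad2 was one of those higher than in the other neurons, and Slc17a7, with no UMI, was lower.

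Slc17a6, the vesicular glutamate transporter gene, had 275, 204 and 253 CPM in mothers, virgin females and virgin males, against 365 ± 12.5 in the other neurons. It was found in 61 of 75 nuclei. Of the 23 nuclei with a Gad2 UMI, 18 also held Slc17a6. That is close to the share of all cluster 4 nuclei with Slc17a6. In cluster 1, 6 of 17 nuclei with Gad2 and 116 of all 157 nuclei held Slc17a6, and the difference between the clusters was not tested. At 4000 UMIs a nucleus, Gad2 was found in 15.1% of cluster 4 nuclei (7.77 to 25.4), in 7.30% of cluster 1 and in 0% to 1.82% of the other clusters, and Slc17a6 in 61.6% (49.5 to 72.8).

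**Figure D3:**
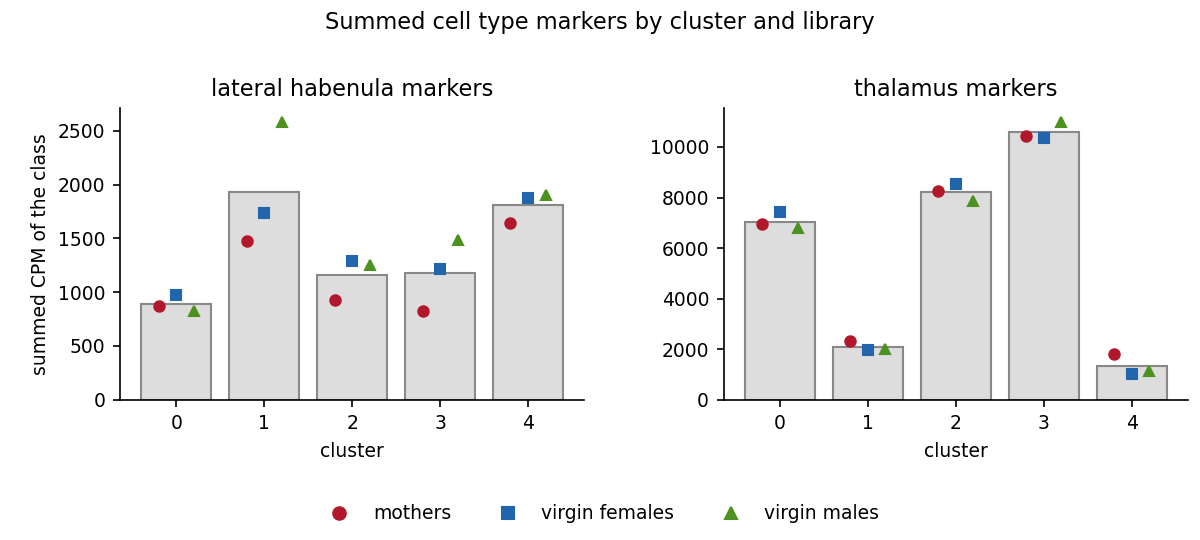
Summed CPM (linear axes from 0, of different length) of LHb and thalamic markers in clusters 0 to 4; points are libraries and bars their mean. Cluster 4 has the lowest thalamic sum (1316 CPM) and an LHb sum close to that of cluster 1.

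Sex-linked transcripts in cluster 4 followed the labels of the libraries. Xist was found in all 34 nuclei of mothers, all 18 of virgin females and none of the 23 of virgin males, and genes of the Y chromosome in 0, 1 and 21 of them.

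Of 9946 genes with enough UMIs to be counted, 315 (3.17%) were at least 2-fold higher in cluster 4 than in the other neurons of the same library in each of the 3 libraries. Another 359 (3.61%) were at least 2-fold lower in each. These percentages are the background for the gene lists below. The filter favours the higher side, since a sparse gene could be counted through 10 UMIs in cluster 4. A gene with fewer there needed 100 UMIs in the other neurons. With at least 100 UMIs for every gene, 177 genes were higher and 359 lower. The median log2 fold of all counted genes was 0.10. Of the 315 higher genes, 301 had their highest mean in cluster 4, and for 207 cluster 1 came next. Of the 359 lower genes, 273 had their lowest mean in cluster 4, and for 207 cluster 1 was next lowest. Scaling each library to its median gene gave 254 higher and 436 lower genes, and thinning every nucleus to 4000 UMIs gave 191 and 189. Only 50 genes were 2-fold higher and 33 were 2-fold lower than in each of the 4 other clusters taken alone, in each library. Much of the contrast with the other neurons was therefore shared with cluster 1.

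Beyond the markers, the 15 genes with the largest differences included long noncoding RNAs, synaptic proteins and signalling genes. The noncoding gene 9530026P05Rik (chromosome 6, 92940329 to 93272979) had 389, 325 and 512 CPM in mothers, virgin females and virgin males, against 11.9 in the other neurons, 34.4-fold less. It was found in 65 of 75 nuclei, about as widely as Megf11. The annotation lists it as antisense, as it does 9130015G15Rik, Tmem132cos, Gm38562, Gm42303, Gm28379 and Nell1os below. Without the strand used in counting, it is not known whether UMIs of these genes were kept apart from those of the genes they overlap.

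A second group of genes lay at a single locus. Cbln1 (chromosome 8, 87468405 to 87472609, minus strand) encodes cerebellin 1, a secreted synaptic organiser that bridges neurexins and delta glutamate receptors. It had 121 CPM in the mothers, 120.4 in the virgin females and 99.2 in the virgin males, against 8.27 in the other neurons. The noncoding RNA Gm2694 (87460469 to 87525554, plus strand) overlaps it and had 156, 183 and 209 CPM against 20.4. Gm27016 (87476055 to 87495462, minus strand) lies within Gm2694 and had 114, 105 and 138 CPM against 13.9. The sources used do not give the strand of counting. Whether UMIs of Gm2694 were kept apart from those of Cbln1 and Gm27016 is therefore not known. Cbln1 and Gm27016 do not overlap each other, and the 3 genes are best read as 1 locus. Cbln1 was found in 43 of 75 nuclei, and after thinning in 27.4% (17.6 to 39.1) against 6.57% in cluster 1.

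Ntng2, a netrin-G adhesion molecule gene, had 144, 183 and 132 CPM in mothers, virgin females and virgin males, against 13.3 in the other neurons, an 11.5-fold difference. Its close relative Ntng1 went the other way. It had 495, 162 and 71.6 CPM in cluster 4 and 3524 ± 323 in the other neurons, 14.5-fold more. Without the 2 mothers' nuclei rich in thalamic markers, the mothers' Ntng1 level was 173 CPM, close to that of virgin females. Cluster 4 was thus above the other neurons in Ntng2 and below them in Ntng1 in every library. Within cluster 4, Ntng1 was above Ntng2 in the mothers, also without those nuclei, and below it in virgin females and virgin males. Cluster 1 held 46.1 CPM of Ntng2 and 856 of Ntng1.

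Adcyap1, which encodes the neuropeptide PACAP, had 96.5 CPM in the mothers, 162 in the virgin females and 143 in the virgin males, against 13.3 in the other neurons. Its UMIs were in 34 of 75 nuclei, and cluster 1, which otherwise came closest to cluster 4, held 10.2 CPM. At equal depth 34.2% of cluster 4 nuclei (23.5 to 46.3) and 4.38% of cluster 1 nuclei held it, so Adcyap1 was among the genes that set cluster 4 apart from its neighbour.

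Signalling and membrane genes made up most of the remaining named genes. Ptprt, a receptor tyrosine phosphatase gene that works in cell adhesion, had 745, 901 and 815 CPM against 119, a 6.92-fold difference. Gpr139, an orphan receptor gene known from the habenula, had 44.6, 31.4 and 82.6 CPM against 4.82. Syt6, a synaptotagmin gene, had 44.6, 89.0 and 116 CPM against 4.97. Every library of cluster 4 was above the other neurons, with virgin males highest for both Gpr139 and Syt6.

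Vstm2l, a secreted immunoglobulin-domain protein gene, differed by 11.6-fold, and Lzts1, which encodes a postsynaptic leucine zipper protein, by 7.91-fold. Fgd5, an exchange factor gene of the Cdc42 pathway, differed by 16.8-fold on 38 UMIs. The noncoding genes 9130015G15Rik and Gm43154 differed by 12.4-fold and 9.79-fold. Fgd5 and Gpr139 were the most thinly spread of the 15, with a UMI in 21 and 22 of 75 nuclei.

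The genes furthest below the other neurons included some known from thalamic neurons. Prkcd, a protein kinase C gene that marks many thalamic relay neurons, had 1 UMI in cluster 4, in virgin females, and 163 ± 44.1 CPM in the other neurons. The ratio of pooled levels was 0.00795 (0.000201 to 0.0444). Cluster 3 carried most of that difference, with 544 CPM, while cluster 1 held 8.83. Prkcd was thus near absent from cluster 4 and from cluster 1 alike.

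Lef1, a transcription factor gene of the Wnt pathway that is high in thalamic neurons, had 27.2, 5.24 and 5.51 CPM in mothers, virgin females and virgin males, against 362 ± 74.5. All 11 UMIs of the mothers were in the 2 nuclei rich in thalamic markers, so 2 UMIs in 2 nuclei were left without them. Npas2, a clock transcription factor gene, had 3 UMIs, 1 in each library, against 157 CPM (ratio of pooled levels 0.0246, interval 0.00506 to 0.0720). Prox1, a homeobox transcription factor gene, had 4 UMIs against 119.7 CPM. Cluster 1 came nearest to cluster 4 for each of them, at 44.9 CPM of Lef1, 11.3 of Npas2 and 33.7 of Prox1. Of the 3, Lef1 was also 2-fold lower than in every other cluster in each library.

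Ptk2b, a calcium-regulated tyrosine kinase gene, and Col12a1, a fibril-associated collagen gene, had no UMI in cluster 4. Against a floor of 3 UMIs over the cluster, Ptk2b was at least 14.1-fold lower and Col12a1 at least 13.0-fold lower than in the other neurons. C6, a terminal complement component gene, and the noncoding genes Tmem132cos and Gm38562 had 1 UMI each. Their pooled ratios were 0.0137 (0.000345 to 0.0764), 0.0265 (0.000670 to 0.149) and 0.0195 (0.000493 to 0.109). Since cluster 1 held 1.87 CPM of C6, 2.97 of Ptk2b, 5.60 of Col12a1 and 6.01 of Gm38562, these 4 were near 0 in both clusters. Col12a1 was as low in clusters 2 and 3 (3.17 and 1.18 CPM). Its difference from the other neurons came from cluster 0, which held 150 CPM.

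Among the families of Cpne8, Igfbpl1 and Megf11, the only higher member was the marker itself. These are given markers, so their own calls add no information. Of 9 copine genes, Cpne8 was higher and Cpne5 and Cpne7 were lower than in the other neurons. Cpne7 had 86.6, 136 and 71.6 CPM against 316, yet was higher than in cluster 1, which held 12.5. Of 9 counted genes of the insulin-like growth factor axis, Igfbpl1 was higher, and Igf1 with 1 UMI and Igfbp7 with 2 UMIs were lower. Of 5 counted phagocytic receptor relatives of Megf11, Megf11 was higher and Gulp1, an engulfment adaptor gene, was lower.

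Adhesion genes of the cadherin superfamily were more often higher. Of 20 counted members, 5 were at least 2-fold higher (Cdh9, Cdh10, Cdh20, Cdh22 and Pcdh19) and 2 lower (Cdh13 and Pcdh9), where 3.17% and 3.61% of all counted genes were. Cdh9 is a given marker, so its own call adds no information. The median log2 fold of the list was 0.58. Cdh20 had 213 CPM in the mothers, 126 in the virgin females and 286 in the virgin males against 31.8, a 6.56-fold difference, and cluster 1 held 35.5. Pcdh19, a protocadherin gene, had 173, 168 and 165 CPM against 53.9. Its libraries lay close together, whereas those of Cdh20 spread more than 2-fold. Cdh9 and Cdh20 were also higher than in cluster 1.

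Among transcription factors of habenula and thalamus, more were lower than higher. Of 31 counted genes 11 were lower (35.5%), 1, Irx2, was higher (3.23%) and the rest passed neither limit, with a median log2 fold of −1.08. The lower genes were Etv1, Tcf7l2, Lef1, Rorb, Foxp2, Lhx2, Prox1, Tshz2, Sox6, Tox and Tox3. Tcf7l2, a Wnt pathway factor of thalamic and habenular neurons, had 168, 89.0 and 27.5 CPM in mothers, virgin females and virgin males, against 715 ± 65.2, and 322 in cluster 1. Foxp2, a forkhead factor, had 69.3, 20.9 and 0 CPM against 465, and without the 2 mothers' nuclei its level in mothers was 2.80 CPM. Irx2, an Iroquois homeobox factor, had 39.6, 62.8 and 55.1 CPM against 10.6. It had no UMI in clusters 0, 2 and 3 and stood at 42.4 CPM in cluster 1, so cluster 4 shared it with its neighbour.

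Sox6 and Etv1 separated cluster 4 from cluster 1. Sox6, an SRY-box factor, had 14.9, 20.9 and 0 CPM in cluster 4 and a mean of 253 in cluster 1. Etv1, an ETS factor, had 3 UMIs in cluster 4, all in mothers, and 96.6 CPM in cluster 1. Against cluster 1 alone, 6 of 27 counted transcription factors were lower (Etv1, Tcf7l2, Lef1, Foxp2, Nfib and Sox6) and none was higher. Of all 9118 genes counted against cluster 1, 1.28% were lower and 1.49% higher.

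Glutamate receptor genes were lower more often than higher. Of 17 ionotropic genes, Gria1 and Grik4 were higher and 6 were lower, namely Grik3 and the NMDA receptor subunit genes Grin2a, Grin2b, Grin2c, Grin2d and Grin3a. Gria1, an AMPA receptor subunit gene, had 1495, 1493 and 1934 CPM against 547, with a UMI in all 75 nuclei. Grin2b had 240, 272 and 116 CPM against 1308 ± 172, a 6.25-fold difference, and 582 in cluster 1. The AMPA subunit Gria1 and the NMDA subunits named here thus lay on opposite sides of the other neurons in every library. Against cluster 1, only Grin2b of these NMDA subunits was called lower, and Gria1 was not called higher. Of 7 metabotropic genes none was higher, and Grm2 and Grm4 were among the lower ones.

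Of 18 inhibitory receptor genes, 2 were higher and 4 lower. Gabra2, an α subunit gene of the GABA-A receptor, had 587, 681 and 744 CPM against 287, and 104 in cluster 1. Gabrg1, a γ subunit gene, had 173, 168 and 198 CPM against 38.0, and 16.0 in cluster 1. Gabra2 and Gabrg1 both set cluster 4 apart from cluster 1 as well. Gabra4, Gabrd, Gabbr2 and the glycine receptor gene Glra2 were lower. Gabrd, a subunit gene of extrasynaptic receptors, had 2 UMIs in 1 mothers' nucleus.

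Receptors for monoamines and acetylcholine gave 3 higher genes (Htr2a, Chrm3 and Adra1a) and 2 lower (Adra1b and Adrb1) of 14 counted. Adra1a, an α1 adrenergic receptor gene, had 42.1, 126 and 88.1 CPM in mothers, virgin females and virgin males against 7.70, an 11.1-fold difference. Adra1b, the related receptor gene, had 5 UMIs in the cluster and 70.5 CPM elsewhere on average, so the pair of adrenergic genes lay on opposite sides, as the netrin-G genes did. Htr2a, a serotonin receptor gene, had 24.8, 41.9 and 66.1 CPM against 10.4, and 37.6 in cluster 1. Htr2c, another serotonin receptor gene counted among the LHb markers, had 319, 204 and 121 CPM, with 77 of its 190 UMIs in 2 mothers' nuclei.

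Of 8 counted neuropeptide genes, Penk and Adcyap1 were higher and Cck and Nxph1 were lower. Penk, the enkephalin precursor gene, had 17.3, 10.5 and 55.1 CPM from 19 UMIs in 10 nuclei, so its level rests on few cells. Among 11 counted peptide receptor genes Tacr1, the substance P receptor gene, was higher, at 49.5, 126 and 27.5 CPM against 7.95, while Oprk1 and Galr1, with 2 and 3 UMIs, were lower. Tacr1 was highest in virgin females, whose nuclei held 24 of its 49 UMIs.

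Prlr, the prolactin receptor gene, was the one higher gene among 11 counted hormone and steroid receptors. It had 69.3 CPM in the mothers, 99.5 in the virgin females and 60.6 in the virgin males, against 34.2 in the other neurons, a 2.24-fold difference. Cluster 0 held nearly as much, 70.1 CPM, whereas cluster 1 held 15.9. At equal depth Prlr was found in 32.9% of nuclei of cluster 4, 22.4% of cluster 0 and 3.65% of cluster 1. Between libraries of cluster 4 its counting intervals all held 1. Nr3c1, the glucocorticoid receptor gene, and Rarb, a retinoic acid receptor gene, were lower. Esr1, the oestrogen receptor gene, had 12 UMIs, and Oxtr, the oxytocin receptor gene, none.

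Ion channel genes differed in both directions. Of 11 pacemaker, T-type channel and associated genes, Cacna1i and Kcnip2 were higher and Kcnip3 was lower. Cacna1i, a T-type calcium channel gene of burst firing, had 126, 147 and 237 CPM in mothers, virgin females and virgin males against 28.6, and 40.9 in cluster 1. Its relative Cacna1g had 163, 215 and 127 CPM, near the 182 of the other neurons but above the 52.4 of cluster 1. Against cluster 1 alone, 5 of 10 counted genes of this list were higher (Cacna1g, Cacna1i, Kcnip2, Kcnip3 and Kcnip4), where 1.49% of all 9118 counted genes were, and Kcnip1 was among the lower ones.

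Of 34 potassium channel genes 3 were higher (Kcnc4, Kcnh1 and Kcnh8) and 6 lower (Kcnc2, Kcnq3, Kcnj9, Kcnk3, Kcnt2 and Kcnab1). Kcnc2, a Kv3 channel gene of fast firing, had 478, 382 and 259 CPM against 1507 on average elsewhere, and 677 in cluster 1. Of 20 sodium and high-voltage calcium channel genes, Cacna1e, the R-type channel gene, was higher, at 723, 744 and 689 CPM against 235. Cacna1c, Cacna2d3 and Cacnb4 were lower. Cacna2d3, an auxiliary subunit gene, had 94.1, 78.6 and 33.1 CPM against 597, and was lower than in every other cluster.

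Axon guidance genes gave 6 higher members (Sema5a, Slit1, Slit2, Dcc, Ntng2 and Ephb1) and 5 lower (Sema5b, Slit3, Unc5b, Ntng1 and Epha4) of 35 counted, or 17.1% and 14.3%. Dcc, the netrin receptor gene, had 2562, 2467 and 2925 CPM against 816, with a UMI in 74 nuclei. Sema5a had 213, 351 and 369 CPM against 78.5, whereas its relative Sema5b had 1 UMI against 40.9. Members of the semaphorin 5, Slit, netrin-G and ephrin receptor families were thus found on both sides.

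Of 46 synaptic adhesion genes 3 were higher (Nlgn1, Cntnap5b and Cntn5) and 5 lower (Slitrk6, Adgrl3, Cntn3, Cntn4 and Cntn6). Cntn5, a contactin gene, had 4809, 3671 and 4699 CPM against 1825, and 973 in cluster 1, while Cntn4 had 552, 230 and 380 CPM against 1851 on average. Of 17 synaptic organisers and neuregulin genes, Cbln1 and Erbb4 were higher and 4 were lower. Erbb4, the neuregulin receptor gene, had 1757, 1461 and 1950 CPM against 212, an 8.11-fold difference. Clusters 0, 2 and 3 held 21.8, 8.49 and 16.8 CPM of Erbb4 and cluster 1 held 781, so clusters 4 and 1 both carried it. Erbb4 was found in 68 of 75 nuclei.

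Intracellular signalling genes leaned lower, with 1 higher and 7 lower of 26 counted genes of protein kinase C and cyclic nucleotide signalling. The higher gene was Prkg1, the cyclic GMP-dependent kinase gene, with 3134, 3357 and 4291 CPM against 718 and 707 in cluster 1. Prkg2, the related kinase gene, was lower, with 14.9, 31.4 and 11.0 CPM. Of 11 counted calcium-binding genes 3 were higher (Hpcal1, Caln1 and Cadps2) and none lower. Caln1, a calneuron gene, had 262, 147 and 281 CPM against 43.4. Of 7 counted immediate early genes 2 were lower (Nr4a3 with 2 UMIs and Dusp1 with 3), and none of 10 counted heat shock genes was called.

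**Figure D4:**
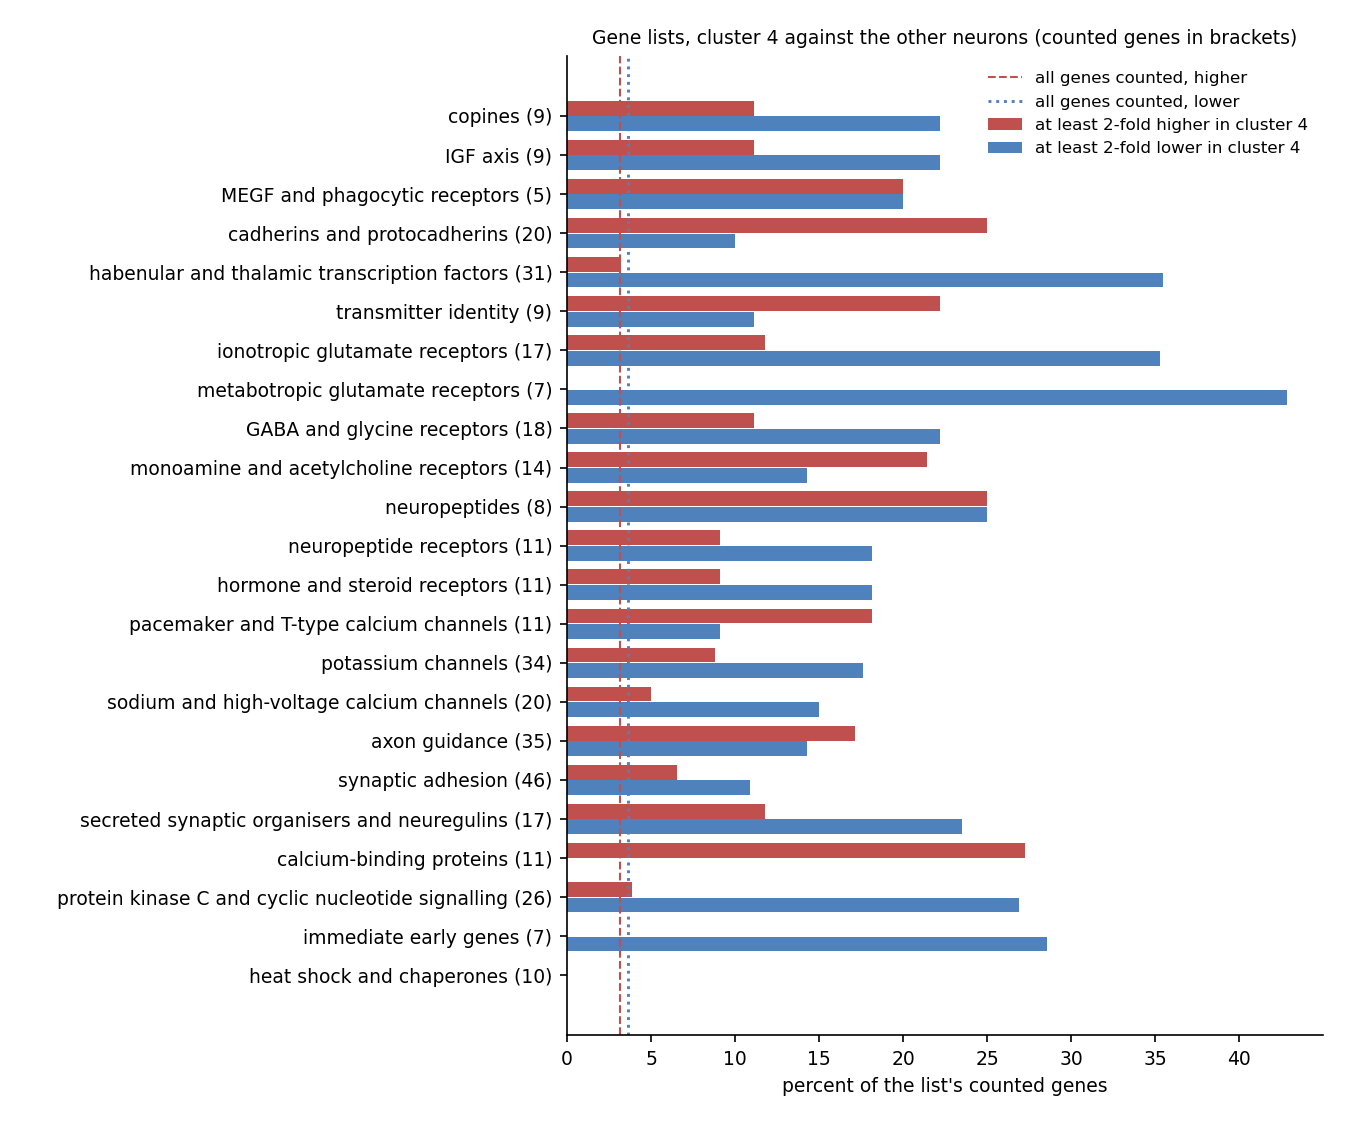
Percent of each gene list's counted members (number in brackets) at least 2-fold higher or lower in cluster 4 than in the other neurons in each of the 3 libraries; dashed and dotted lines give 3.17% and 3.61%, the shares over all counted genes. Most lists exceed both lines. In the copine, IGF axis and MEGF lists the only higher gene is the given marker, and the cadherin list also holds a given marker. The lists of transcription factors and of ionotropic and metabotropic glutamate receptors have the longest bars for lower genes, and heat shock genes have none.

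Cluster 1 was the most similar cluster, and a direct comparison asked what cluster 4 adds to it. Of 9118 counted genes 136 (1.49%) were at least 2-fold higher in cluster 4 in each library and 117 (1.28%) were lower. Of the 255 genes higher than in the other neurons that could be counted here, 74 were also higher than in cluster 1, and of 202 lower genes 52 were also lower. The 4 markers, 9530026P05Rik, Cbln1, Ntng2, Adcyap1, Gabra2, Gabrg1, Prkg1, Cacna1i, Prlr and Adra1a were among those that differed from both. Erbb4, Gria1, Dcc, Irx2, Gad2, Chrm3, Slit2 and Ephb1 were higher than in the other neurons but did not pass 2-fold against cluster 1 in each library. Slit2 stood at 385 CPM in cluster 1 and 289.5 in cluster 4.

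The 3 libraries of cluster 4 were then compared with each other. The pairs share libraries, so the comparisons are not independent, and each fold compares libraries and not conditions. Genes named here had a UMI in at least 5 nuclei of the higher library, a fold past 2 also without the nucleus richest in the gene, and a counting interval that left out 1. Of 4000 genes counted between mothers and virgin females, 121 (3.02%) were at least 2-fold higher in mothers and 79 (1.98%) lower. Between virgin males and virgin females 48 of 2447 (1.96%) were higher in males and 68 (2.78%) lower. Between mothers and virgin males 141 of 3883 (3.63%) were higher in mothers and 51 (1.31%) lower. After thinning to 4000 UMIs, 56, 38 and 49 genes passed 2-fold in the 3 pairs.

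Of the 4 markers none passed 2-fold in any pair in which it was counted. Their counting intervals held 1 in all but 1 of the pairs. The exception was Cpne8, whose ratio of virgin males to virgin females was 0.584 (0.343 to 0.974).

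Mothers and virgin females differed most in genes of mixed function. Rnf220, a ubiquitin ligase gene, had 223 CPM in the mothers, 15.7 in the virgin females and 66.1 in the virgin males. The ratio of mothers to virgin females was 14.2 (4.70 to 70.0), but 1 nucleus held 36 of the mothers' 90 UMIs, and without the 2 nuclei rich in thalamic markers the mothers' level was 78.3 CPM. In clusters 0, 2 and 3 the mothers' library held 1862, 1382 and 1204 CPM of Rnf220. The mothers' excess of Rnf220 in cluster 4 thus rested in large part on those 2 nuclei, and the part of thalamic transcripts in it was not tested.

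Dnajc5, which encodes a cysteine string protein of synaptic vesicles, was spread more evenly. It had 111 CPM in the mothers, 10.5 in the virgin females and 55.1 in the virgin males, a ratio of 10.6 (2.78 to 90.5) between mothers and virgin females, on 45 and 2 UMIs. In clusters 0 to 3 the mothers' and virgin females' levels of Dnajc5 were 73.8 and 56.1, 78.8 and 86.1, 70.6 and 76.4, and 66.5 and 60.4 CPM. The other clusters thus showed no such gap, and the low library was that of virgin females. Ppm1g, a protein phosphatase gene, had 76.7 and 10.5 CPM in the same pair, the latter from 2 UMIs in 1 nucleus (ratio 7.33, 1.86 to 63.2).

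Lmo3, a LIM-only transcription cofactor gene, had 86.6 CPM in the mothers, 15.7 in the virgin females and 11.0 in the virgin males. Mothers were 5.51-fold higher than virgin females (1.74 to 28.0) and 7.86-fold higher than virgin males (2.02 to 67.5). A UMI was found in 11 nuclei of mothers, 3 of virgin females and 2 of virgin males, and 18 of the mothers' 35 UMIs were in 1 nucleus. None of the mothers' Lmo3 UMIs was in the 2 nuclei rich in thalamic markers. In cluster 1 the order was reversed, with 29.3, 43.6 and 60.7 CPM.

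Of the remaining genes higher in mothers than in virgin females, mt-Nd3, a mitochondrially encoded subunit gene, had 114 CPM in mothers and no UMI in virgin females. It was at least 7.25-fold higher, with 19 of 46 UMIs in 1 nucleus. In clusters 0 to 3 the mothers' and virgin females' levels of mt-Nd3 were 18.1 and 87.0, 58.6 and 94.3, 164 and 72.0, and 10.8 and 11.5 CPM. The direction thus differed between clusters. Snrk, a kinase gene, Ano5, an anoctamin gene, and the noncoding gene Gm42303 were 4.37-fold, 4.06-fold and 4.02-fold higher. On the other side stood Atat1, a tubulin acetyltransferase gene, at 29.7 CPM in the mothers and 99.5 in the virgin females, with Ercc6l2, 6330411D24Rik, Cbarp, Nell1os and Tfcp2 between 2.72-fold and 3.17-fold lower in mothers. These 6 genes were sparse, with at most 29 UMIs each in virgin females.

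Gad2 and Adra1a, both higher in cluster 4 than in the other neurons, were also among the genes lower in mothers than in virgin females. Gad2 had 37.1 CPM in the mothers and 105 in the virgin females, a ratio of 0.354 (0.169 to 0.728) from 15 UMIs in 10 nuclei and 20 UMIs in 8 nuclei. Adra1a had a ratio of 0.335 (0.169 to 0.650), from 17 and 24 UMIs. In cluster 4 virgin males lay between for both genes. In cluster 1 the order of Gad2 was reversed, with 56.3 CPM in mothers and 31.8 in virgin females. That of Adra1a was the same, with 20.3 and 30.7 CPM.

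Virgin males and virgin females differed first in sex-linked genes. Eif2s3y (Y chromosome) had 231 CPM in virgin males and no UMI in virgin females, and Xist had 1032 CPM in virgin females and no UMI in virgin males. Tsix, which overlaps Xist on the opposite strand, went with it. Whether the UMIs of the pair were kept apart is not known without the strand of counting. Away from the sex chromosomes, Grm8, a presynaptic metabotropic glutamate receptor gene, had 182 CPM in virgin males, 36.7 in virgin females and 139 in mothers, a ratio of 4.96 (2.16 to 13.3). It was found in 6 of 23 nuclei of virgin males and 4 of 18 of virgin females, so that ratio reflects UMIs per positive nucleus more than the share of nuclei.

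Fstl5, a follistatin-like gene, had 507 CPM in virgin males, 147 in virgin females and 413 in mothers, a ratio of 3.46 (2.24 to 5.48), with 30 of the males' 92 UMIs in 1 nucleus. Cdh7, a type II cadherin gene, had 215, 68.1 and 168 CPM in the same order, a ratio of 3.16 (1.65 to 6.44). For Grm8, Fstl5 and Cdh7 alike the virgin females' library was the low one and mothers stood with virgin males. Susd6, Gm28379, Ube2w and Acer3 were 4.38-fold, 3.16-fold, 3.04-fold and 2.91-fold higher in virgin males.

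On the lower side, Nrn1, the neuritin gene of activity-regulated neurite growth, had 27.5 CPM in virgin males, 147 in virgin females and 91.6 in mothers, a ratio of 0.188 (0.0566 to 0.493). Col25a1, a transmembrane collagen gene, had 60.6, 267 and 121 CPM, a ratio of 0.227 (0.107 to 0.441). Dcaf17, a ubiquitin ligase adaptor gene, had 138, 513 and 243 CPM, with 25 of the 98 UMIs of virgin females in 1 nucleus. Virgin females were highest and virgin males lowest for all 3. In cluster 1 the levels of Nrn1 in virgin males and virgin females were 277 and 282 CPM, and of Col25a1 750 and 780. Nell1os, Col4a3bp and Chpt1 were 4.28-fold, 4.12-fold and 3.53-fold lower in virgin males.

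Mothers and virgin males differed in Xist, Tsix and Eif2s3y along the labels, and in a few genes that are also high in thalamic neurons. The 6 thalamic markers summed to 1812 CPM in mothers and 1135 in virgin males, but to 1281 in mothers without the 2 nuclei rich in them. Of the 2 thalamic markers with enough UMIs to be counted in this pair, only Ntng1 passed 2-fold. Ntng1 was 6.91-fold higher in mothers (3.95 to 13.2) and Tcf7l2 6.11-fold (2.49 to 19.4). Without the 2 nuclei rich in thalamic markers the mothers' levels were 173 CPM of Ntng1 and 126 of Tcf7l2, against 71.6 and 27.5 in virgin males, which is a log2 ratio of 1.23 and 2.07. Both genes thus stayed past 2-fold, with a smaller gap for Ntng1. The part of thalamic transcripts in the other differences of mothers was not tested.

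Golga3, a golgin gene, had 74.3 CPM in the mothers, 52.4 in the virgin females and 5.51 in the virgin males, a ratio of 13.5 (2.24 to 550) on 30 UMIs and 1 UMI. In cluster 1 Golga3 had 405 CPM in mothers and 23.8 in virgin males, a gap in the same direction, whereas clusters 0, 2 and 3 had 45.2 and 47.9, 81.8 and 67.5, and 46.7 and 66.5 CPM. Ripor2 and 1500011B03Rik were 6.74-fold and 6.29-fold higher in mothers. Eda, the ectodysplasin gene of the X chromosome, had 24.8 CPM in the mothers, 99.5 in the virgin females and 121 in the virgin males, a ratio of 0.204 (0.0863 to 0.449). Syt6, one of the 15 genes named above, had 44.6 CPM in mothers and 116 in virgin males, a ratio of 0.385 (0.193 to 0.759). Cfap36, Sptlc1, Chst10, Dtnbp1 and Cntnap5c were 2.97-fold, 2.91-fold, 2.67-fold, 2.64-fold and 2.59-fold lower in mothers.

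**Figure D5:**
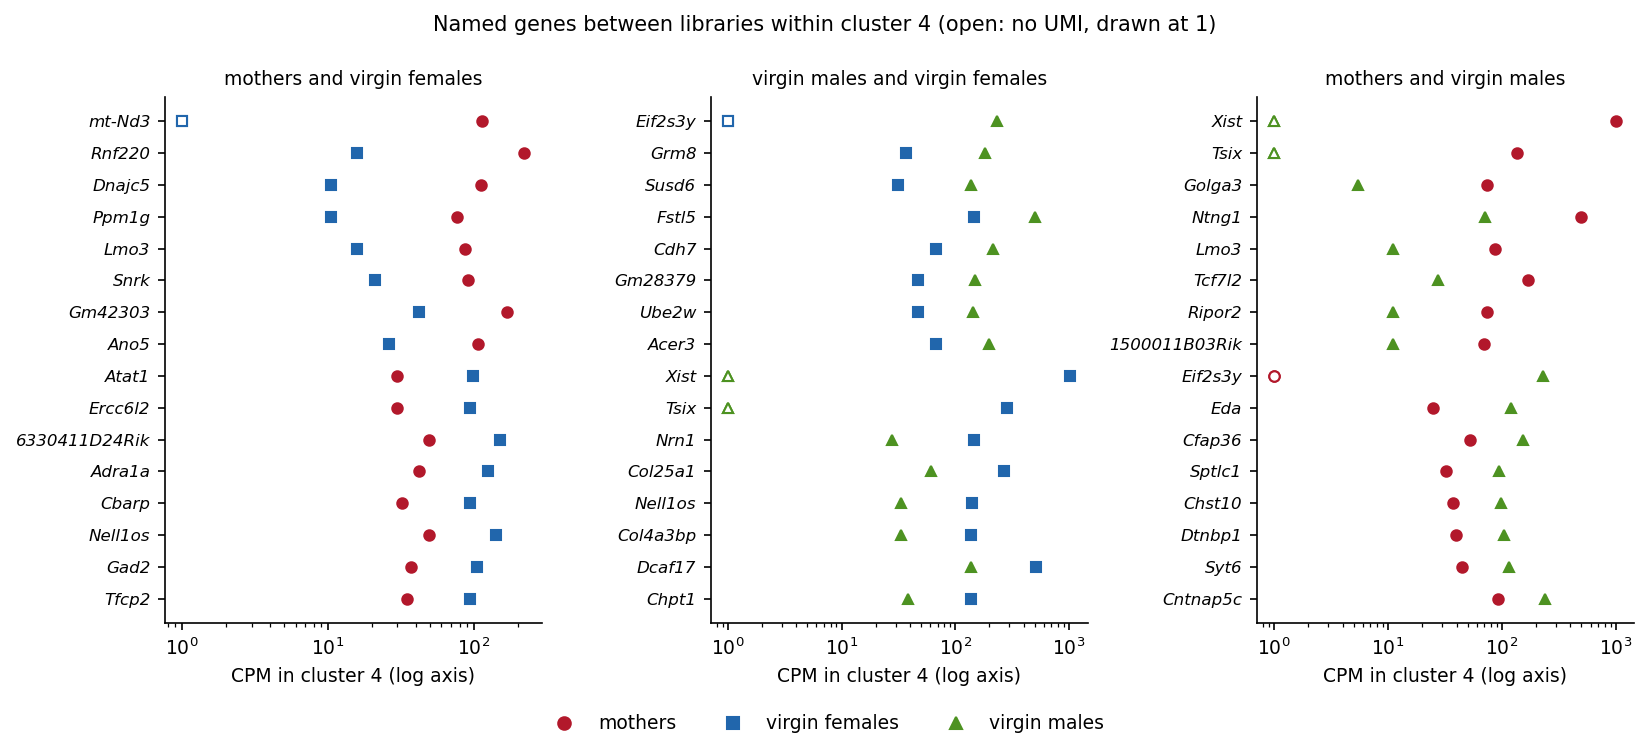
Levels (CPM, log axis) in cluster 4 of the genes named for each pair of libraries; each row is 1 gene and each point 1 of the 2 libraries compared, with open points for a level of 0 drawn at 1. Xist, Tsix and Eif2s3y have the widest gaps, next to mt-Nd3, Rnf220 and Golga3, and most other genes differ by 2-fold to 10-fold.

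By list, the pairs gave few calls. Between mothers and virgin females 4 of 16 counted transcription factors were higher in mothers (Foxp2, Nfia, Tox and Lmo3) and none lower, where 3.02% of all counted genes were higher. Of the mothers' 28 Foxp2 UMIs 27 were in the 2 nuclei rich in thalamic markers, against 23 of 53 Tox UMIs, 1 of 26 Nfia UMIs and 0 of 35 Lmo3 UMIs. Of 19 counted cadherins 1 (Cdh7) was higher in mothers, of 14 ionotropic glutamate receptor genes 2 (Grin2a and Grin3a), and of 26 axon guidance genes 3 (Slit3, Unc5d and Ntng1). Without those 2 nuclei the mothers' levels of Foxp2 (2.80 against 20.9 CPM in virgin females), Tox (83.9 against 62.8), Grin2a (366 against 209), Slit3 (151 against 78.6) and Ntng1 (173 against 162) were no longer 2-fold higher. Nfia, Lmo3, Cdh7, Grin3a and Unc5d still were. None of 23 potassium channel genes, 18 sodium and calcium channel genes, 14 inhibitory receptor genes and 5 hormone receptor genes passed 2-fold in this pair. Between virgin males and virgin females Cdh7 and Cdh20 of 17 cadherins were higher in males. Of 24 axon guidance genes Slit3 was higher in males and Nrp1, Nrp2 and Ntng1 were lower, where 1.96% and 2.78% of all counted genes were.

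Between mothers and virgin males 4 of 16 transcription factors were higher in mothers (Tcf7l2, Nfia, Tox and Lmo3) and none lower, where 3.63% of all counted genes were higher. Without the 2 nuclei rich in thalamic markers all 4 still passed 2-fold. Among 18 sodium and calcium channel genes Cacna2d3 was one of those higher in mothers, but it stood at 39.1 CPM without those nuclei, against 33.1 in virgin males. Of 25 axon guidance genes Ntng1 was higher, and of 14 ionotropic glutamate receptor genes Grin2b. None of 19 cadherins and 22 potassium channel genes passed.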

How the data were processed

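Transcripts were counted in sorted nuclei of 3 libraries, 1 per group, with the 10x Chromium 3′ assay per the labels' protocols. The authors deposited raw UMI counts per gene and nucleus and a metadata table with each nucleus's UMI and gene totals, percent of mitochondrial UMIs and cluster. The submitters' processing notes name Cell Ranger 5.0.1 and GRCm38 (mm10). Intron counting, strand, filters and doublet treatment are not given in the sources used. Tables were joined by the unique pair of UMI and gene totals (603 of 603 nuclei), and the recomputed mitochondrial percent differed by 0 from the deposited percent. Library totals were 2126642 to 2790062 UMIs.

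UMIs were summed per library and set of nuclei and scaled to CPM. A gene was called where its ratio, with 0.5 UMI added to each sum, passed 2-fold in the same direction in each library. Counted genes had at least 30 UMIs, with 10 in cluster 4 or 100 in the other neurons. Printed folds are ratios of mean CPM over the 3 libraries, without the added UMI, and a 0 was set at 3 UMIs. Ratios of pooled levels and of libraries carry exact conditional binomial 95% intervals. Named against the other neurons are the 4 markers, the 15 genes with the largest smallest-of-3 ratio (30 UMIs and 3 nuclei a library at least) and the 10 most negative. Between libraries 8 genes are named per direction, by the rule given there. Of 23 lists, called genes are named, with up to 4 of the most abundant, and others chosen after their values were seen. Some genes that these rules select are not reported here. Members and lists were chosen with earlier results of these data known. Positions are from GENCODE M21. The computation was tested on simulated data. Python 3.11.15, numpy 2.4.6, pandas 2.3.3 and scipy 1.17.1 were used.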

Additional observations from a re-analysis of the deposited data

How the results depend on the processing

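The count of genes higher in cluster 4 than in the other neurons (315) was 177 with at least 100 UMIs a gene, 3746 with no minimum, 191 after thinning to 4000 UMIs, 50 against every other cluster and 477 to 529 without a library, where only 2 libraries had to pass. The count of lower genes (359) was 189 after thinning, 33 against every other cluster and 429 to 514 without a library. Against cluster 1 alone, a comparison added after the data were seen, the counts were 136 and 117. Centring each library on its median gave 254 higher and 436 lower genes. C6 and Gm38562 turned to log2 ratios of 0.155 and 0.377 against the nearest other cluster. Genes past 2-fold between mothers and virgin females (200) were 19 with at least 100 UMIs, 5374 with no minimum and 56 after thinning. For virgin males and virgin females (116) they were 11, 6121 and 38, and for mothers and virgin males (192) 12, 5252 and 49, with 292 when each gene's richest nucleus was left out. Without the 2 nuclei rich in thalamic markers, an alternative added after the data were seen, the counts were 313 higher and 383 lower, and 176 and 153 for the pairs with mothers. Of the alternatives of genes named against the other neurons 347 kept their direction and side of the 2-fold limit. Another 9 no longer passed it and 2 turned. Between libraries 307 kept both and 3 no longer passed. Part of these counts was fixed beforehand. A changed minimum leaves a ratio as it is, and genes below a minimum were left out. Leaving out a library could not undo a call made in every library. Genes named between libraries already had to pass without their richest nucleus. Against the nearest other cluster Ptk2b, Npas2, Col12a1, Prkcd, Tmem132cos, Prox1, Syt6 and Lzts1 no longer passed. No paired analysis was possible because each group has 1 library. Depth limits the libraries to genes of 30 UMIs in a pair, and nuclei are not replicates.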
